A study of Mus musculus with 12 samples.

Results

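The genes described here are 5 costimulatory receptors of the tumour necrosis factor (TNF) receptor superfamily and 5 ligands of the same system, taken by name from a table of 35999 gene symbols. The receptors are Tnfrsf4 (OX40), Tnfrsf18 (GITR), Tnfrsf9 (4-1BB), Cd27 and Tnfrsf25 (DR3). The ligands are Tnfsf4 (OX40 ligand), Tnfsf18 (GITR ligand), Tnfsf9 (4-1BB ligand), Cd70 (the ligand of CD27) and Tnfsf8 (the ligand of CD30). All 10 had a row in the table, and 8 had enough counts to be tested, namely the 5 receptors and the ligands Tnfsf9, Tnfsf18 and Tnfsf8. The samples were 12 subcutaneous tumours of AB1-HA, a transplanted mouse mesothelioma line, grown in male BALB/c mice aged 8 to 10 weeks. The anti-CD4 group had 6 tumours from mice given 100 µg of an antibody against CD4, and the PBS group had 6 tumours from mice given the buffer alone. Injections were on days -3, 0 and 7 around inoculation, and tumours were taken on day 9. The antibody acts on every CD4-bearing cell, so helper and regulatory T cells were both targets, while cells without CD4 were not its targets.

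These receptors sit mainly on activated T cells and NK cells, and OX40 and GITR are also present at high levels on regulatory T cells. Their ligands are trimeric membrane proteins found mostly on activated dendritic cells, B cells and macrophages, and for GITR ligand and OX40 ligand also on endothelial cells. Binding clusters the receptors, which recruit TRAF adaptor proteins and activate the canonical and noncanonical NF-kB pathways, and T cell survival and expansion are prolonged. DR3 differs in carrying a death domain and binds TL1A, the product of Tnfsf15. CD30, the product of Tnfrsf8, is the receptor for the Tnfsf8 product.

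Total estimated counts were 34.45 to 62.06 M in anti-CD4 tumours and 30.75 to 41.93 M in PBS tumours. Mean depth was 46.4 ± 10.04 M in anti-CD4 tumours and 36.08 ± 4.027 M in PBS tumours (SD, n = 6 each, exact two-sided permutation p = 0.039). Levels are CPM (counts scaled to a common library size by TMM), and a gene was called at an adjusted p under 0.05 in the edgeR quasi-likelihood test over 17940 genes. Cd4 was at 1.31 ± 0.493 CPM in anti-CD4 tumours and 6.31 ± 2.34 CPM in PBS tumours (SD, n = 6 each), and no anti-CD4 tumour reached the lowest PBS value. Markers of mesothelial cells summed to 133 to 201 CPM in anti-CD4 tumours and 126 to 173 CPM in PBS tumours, most of it from Msln, the mesothelin gene, while Upk3b, Krt18, Krt19 and Calb2 were too low to be tested. Of the 5 tested, 1 was called, Pdpn, which was higher (log2 fold change 0.33, edgeR adjusted p = 0.0186), as were 2.95% of all genes. Pdpn was at 32.1 to 37.5 CPM in anti-CD4 tumours and 24.6 to 30 CPM in PBS tumours, and lost its call without anti-CD4 2.

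Calls among the receptors were all toward lower levels in anti-CD4 tumours, and no tested ligand was called in edgeR. Of 5 receptors, 3 fell, namely Tnfrsf4, Tnfrsf18 and Cd27, and all 5 had negative log2 fold changes with a median of -0.86. Of 3 tested ligands, 0 passed in the edgeR test in either direction, and their median was -0.02. Tnfsf18, with the higher mean in anti-CD4 tumours, was the only tested ligand at an unadjusted p under 0.05. In edgeR, 5027 of the 17940 genes were under that value, in either direction. Over all genes tested, 2.33% were lower and 2.95% were higher at the same threshold (5.28% in either direction), and 50.1% had a negative and 49.9% a positive log2 fold change. DESeq2 called 3 receptors lower and 1 ligand, Tnfsf18, higher, and over all 17940 genes 1157 lower and 1337 higher. The limma voom fit called 5 receptors lower and 0 ligands, and over all 17940 genes 3169 lower and 2809 higher. The count of 3 receptors was 0 in edgeR with library size (log2) as a covariate, where Tnfrsf4 was at -1.82 (adjusted p = 0.0785), Tnfrsf18 at -0.59 (0.251) and Cd27 at -0.59 (0.428). After thinning all libraries to the lowest total it was 2, with Tnfrsf4 at -1.97 (edgeR adjusted p = 0.00554) and Tnfrsf18 at -0.85 (0.024). It was 1 without anti-CD4 2, anti-CD4 5, anti-CD4 6 or PBS 6, where Tnfrsf4 alone kept its call, and 4 without anti-CD4 1, without PBS 1, or without both anti-CD4 3 and 4. The count of lower genes over the whole table, 418 in the main fit, moved with the same settings. It was 5 with the library covariate and 375 after thinning. Without anti-CD4 2, anti-CD4 5, anti-CD4 6 or PBS 6 it was 33, 31, 36 and 65. Without anti-CD4 1, PBS 1, or both anti-CD4 3 and 4 it was 1153, 1480 and 705.

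**Figure D1:**
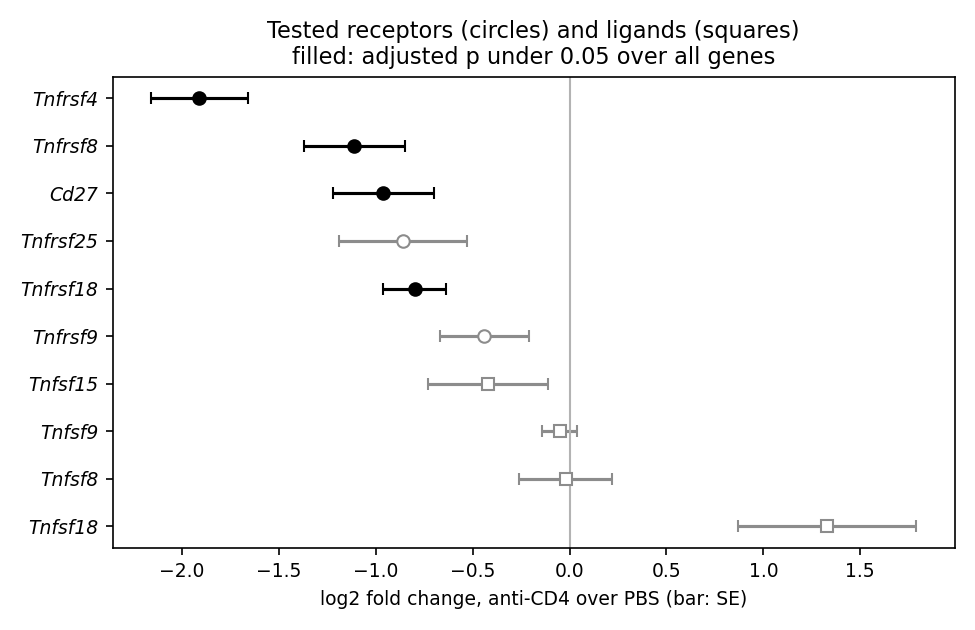
Log2 fold change of anti-CD4 over PBS tumours (x axis, bars are SE) for the tested receptors (circles) and ligands (squares), with Tnfrsf8 and Tnfsf15 added as partners. Filled symbols passed the test: Tnfrsf4, Tnfrsf8, Cd27 and Tnfrsf18 lie left of 0, and Tnfsf18 alone lies clearly to the right at 1.33 without passing.

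Tnfrsf4 encodes OX40, which sustains the survival of activated CD4 T cells and is carried by regulatory T cells. Its level was 0.442 CPM at the lowest, 0.696 at the median and 0.860 at the highest in anti-CD4 tumours, against 1.75, 2.35 and 4.25 CPM in PBS tumours. Every anti-CD4 tumour lay below every PBS tumour, as held for 3.13% of all genes tested in either direction. The mean in anti-CD4 tumours was 26.7% of that in PBS tumours (0.679 ± 0.150 and 2.54 ± 0.921 CPM, SD, n = 6 each). The log2 fold change was -1.91 (SE 0.25, edgeR adjusted p = 0.00298). The call held without each of the 12 tumours in turn, with adjusted p of 0.00299 to 0.0130 in edgeR. Tnfrsf4 lies on chromosome 4 from 156013843 to 156016612 in GRCm38, on the plus strand, and its counts were whole in all 12 tumours, with no annotated gene on top of it.

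Tnfrsf18 encodes GITR, which is abundant on regulatory T cells and rises on effector T cells after activation. It was at 2.74 CPM at the lowest, 3.53 at the median and 4.67 at the highest in anti-CD4 tumours, against 5.03, 5.87 and 8.13 CPM in PBS tumours. The groups did not overlap here either, but the distance between the highest anti-CD4 tumour (anti-CD4 1) and the lowest PBS tumour (PBS 1) was small. The mean was 3.64 ± 0.735 CPM in anti-CD4 tumours and 6.32 ± 1.16 CPM in PBS tumours (SD, n = 6 each), and the log2 fold change was -0.80 (SE 0.16, edgeR adjusted p = 0.0215). Without anti-CD4 2, anti-CD4 5, anti-CD4 6 or PBS 6 the adjusted p was 0.0504 to 0.0645, and the log2 fold change stayed between -0.87 and -0.71 in all 12 such fits. Tnfrsf18 lies on chromosome 4 from 156026164 to 156028895, on the plus strand, and 414 of its 1524 exon bases are also exons of the antisense gene Gm16008. The strand setting of the counting is not known here, and reads of both genes cannot be told apart without it.

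Cd27 encodes a receptor that naive and memory T cells and NK cells carry without prior activation. It was at 1.67, 2.52 and 3.58 CPM (lowest, median and highest) in anti-CD4 tumours, against 3.14, 4.48 and 8.06 CPM in PBS tumours. Anti-CD4 2, 5 and 6 were lowest, at 1.67 to 1.91 CPM, anti-CD4 4 lay just under the lowest PBS tumour, and anti-CD4 1 and 3 lay above it. The mean was 2.57 ± 0.911 CPM in anti-CD4 tumours and 4.99 ± 1.70 CPM in PBS tumours (SD, n = 6 each), and the log2 difference was -0.96 (SE 0.26, edgeR adjusted p = 0.0464). This call was the least stable of the 3 receptors. It was kept only without anti-CD4 1, anti-CD4 3 or PBS 1. Without any other single tumour (anti-CD4 2, 4, 5 and 6 and PBS 2 to 6) the adjusted p was 0.0542 to 0.112. Part of this came with the adjustment over the whole table. Without PBS 3 the log2 difference was -1.01 and the edgeR unadjusted p was 0.00217, against 0.00216 with all tumours. Without PBS 6 the log2 difference itself was smaller, at -0.77 (edgeR unadjusted p = 0.00642). With library size as a covariate the log2 difference was -0.59 (edgeR adjusted p = 0.428). With upper quartile scaling the adjusted p was 0.0537, and with counts thinned to the lowest total it was 0.052. Cd27 lies on chromosome 6 from 125232622 to 125237010, on the minus strand, and its estimated counts were not whole numbers in any tumour.

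Tnfrsf9 encodes 4-1BB, an inducible receptor of activated CD8 T cells, NK cells and regulatory T cells. It was at 5.15, 7.06 and 14.3 CPM (lowest, median and highest) in anti-CD4 tumours, against 7.09, 10.8 and 12.6 CPM in PBS tumours. Anti-CD4 4 was above every PBS tumour, and the other 5 anti-CD4 tumours, at 5.15 to 8.01 CPM, overlapped PBS 5 alone. The log2 fold change of -0.44 did not pass (SE 0.23, edgeR adjusted p = 0.218), whereas without anti-CD4 4 it was -0.71 (adjusted p = 0.0345). Beside this, anti-CD4 4 also had the highest summed level of T cell markers in its group (45.8 CPM, against 9.26 to 32.5 CPM in the other anti-CD4 tumours), and their part in the value was not tested.

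Tnfrsf25 encodes DR3, which regulatory T cells and innate lymphoid cells carry. It was at 0.411, 0.583 and 1.56 CPM (lowest, median and highest) in anti-CD4 tumours, against 0.663, 1.42 and 1.78 CPM in PBS tumours. Anti-CD4 1 and PBS 1 each stood on the other group's side. The log2 fold change of -0.86 did not pass (SE 0.33, edgeR adjusted p = 0.118). Without anti-CD4 1 it was -1.21 (adjusted p = 0.0206) and without PBS 1 it was -0.999 (adjusted p = 0.0485), so a single tumour of either group decided the call.

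Tnfrsf8, which encodes CD30, is the receptor of the Tnfsf8 product and is not itself among the 10 genes. It was at 0.242, 0.308 and 0.538 CPM (lowest, median and highest) in anti-CD4 tumours, against 0.536, 0.636 and 1.05 CPM in PBS tumours. It fell by 1.11 on the log2 scale (SE 0.26, edgeR adjusted p = 0.0342), with only anti-CD4 3 reaching the lowest PBS value. That call was kept without anti-CD4 1, anti-CD4 3, PBS 1 or PBS 4, and lost without any of the other 8 tumours.

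**Figure D2:**
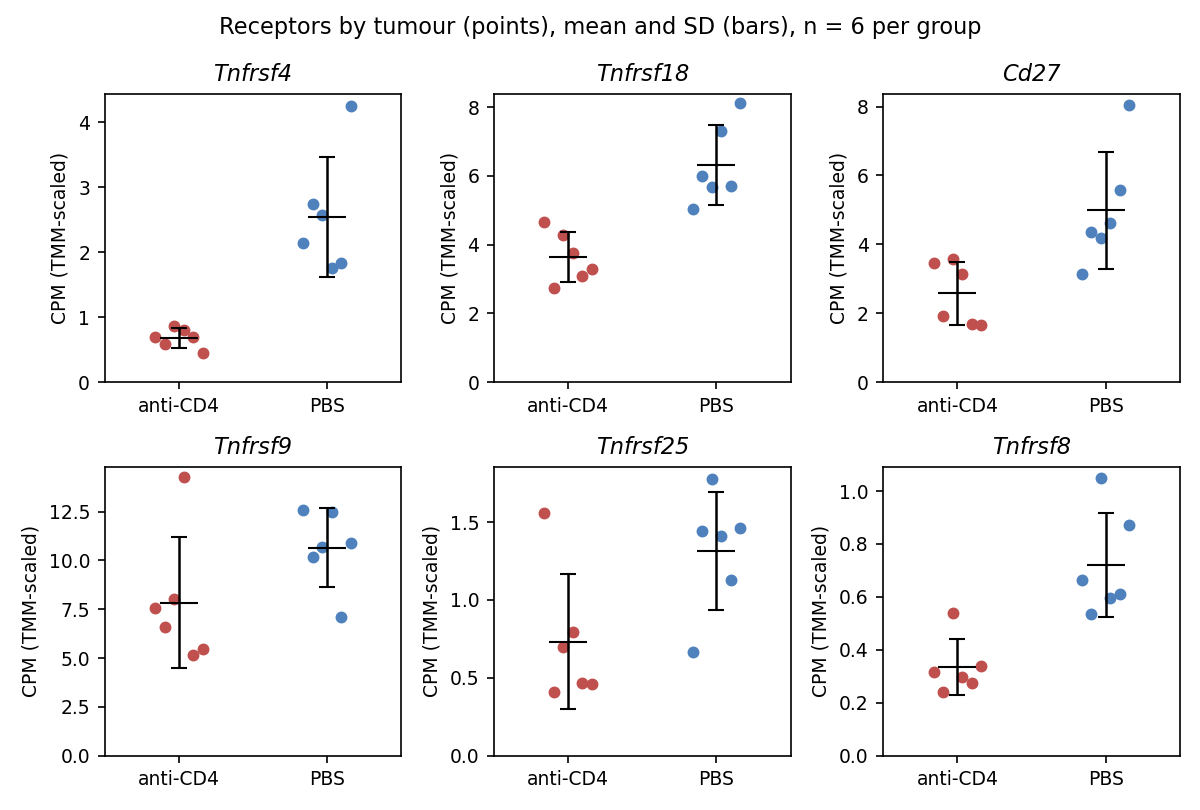
CPM (y axis, from 0) of the 5 receptors and of Tnfrsf8 in each anti-CD4 and PBS tumour (points), with the mean and SD of each group (bars, n = 6). The groups are apart for Tnfrsf4 and Tnfrsf18, and 1 anti-CD4 tumour stands high for Tnfrsf9 (14.3 CPM) and for Tnfrsf25 (1.56 CPM).

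Among the ligands, Tnfsf18 had the largest log2 fold change. It encodes GITR ligand, which endothelial cells and antigen-presenting cells carry. It was at 0.296, 0.730 and 1.93 CPM (lowest, median and highest) in anti-CD4 tumours, against 0.147, 0.293 and 0.552 CPM in PBS tumours. All 6 anti-CD4 tumours were above the PBS median and 4 of them were above every PBS tumour. These levels rest on 234 counts in anti-CD4 tumours and 73 in PBS tumours. The log2 fold change was 1.33 (SE 0.46, edgeR adjusted p = 0.0886), DESeq2 gave 1.34 (adjusted p = 0.0498) and voom gave 0.74 (adjusted p = 0.163), so the size and the call depended on the tool. Without anti-CD4 4, the highest tumour, the edgeR value was 0.88. Endothelial markers summed to 120 to 246 CPM in anti-CD4 tumours and 138 to 183 CPM in PBS tumours, and anti-CD4 4 was the highest for these as well. That tumour was also the highest of its group for the summed markers of skeletal muscle (1338 CPM), adipocytes (289), fibroblasts (34115), T cells (45.8) and B cells (8.78). None of the 6 endothelial markers passed in edgeR, where 1 was higher at an unadjusted p under 0.05, and 0 passed in DESeq2 or voom. The part of these cells in the Tnfsf18 value was not tested.

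Tnfsf9 and Tnfsf8 had log2 fold changes near 0. Tnfsf9 encodes 4-1BB ligand, made by antigen-presenting cells and by many tumour lines. It was at 5.13, 5.89 and 6.28 CPM (lowest, median and highest) in anti-CD4 tumours, against 5.82, 5.99 and 6.60 CPM in PBS tumours. Its log2 fold change was -0.05 (SE 0.09, edgeR adjusted p = 0.720), the smallest standard error of the 8 tested genes. Of its 1290 exon bases, 192 overlap the opposite-strand gene Gm11110. Tnfsf8, the ligand of CD30, was at 0.887, 1.46 and 1.99 CPM in anti-CD4 tumours, against 0.931, 1.37 and 2.28 CPM in PBS tumours. Its log2 fold change was -0.02 (SE 0.24, edgeR adjusted p = 0.966), and neither group stood apart.

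Tnfsf4 and Cd70 were too low to be tested. Tnfsf4, the OX40 ligand gene, had 4 to 9 counts in each anti-CD4 tumour and 2 to 14 in each PBS tumour. That is 0.108 to 0.169 CPM in anti-CD4 tumours and 0.0625 to 0.395 CPM in PBS tumours, and every anti-CD4 tumour fell inside the PBS range. Cd70, which encodes the ligand of CD27, had 0 counts in all 6 anti-CD4 tumours and 5 counts in all in PBS tumours, 2 in PBS 2, 1 in PBS 4 and 2 in PBS 5. A count of 0 in all anti-CD4 tumours allows a level of up to 0.0111 CPM (3 counts over the group), against a mean of 0.0243 CPM in PBS tumours. With no filter on low counts, Cd70 did not pass (edgeR unadjusted p = 0.0254, adjusted p = 0.180), and neither did Tnfsf4 (adjusted p = 0.480). Tnfsf15, which encodes the DR3 ligand TL1A and is not among the 10 genes, was at 0.405 ± 0.156 CPM in anti-CD4 tumours and 0.533 ± 0.186 CPM in PBS tumours (SD, n = 6 each) and did not pass (log2 fold change -0.42, edgeR adjusted p = 0.384).

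**Figure D3:**
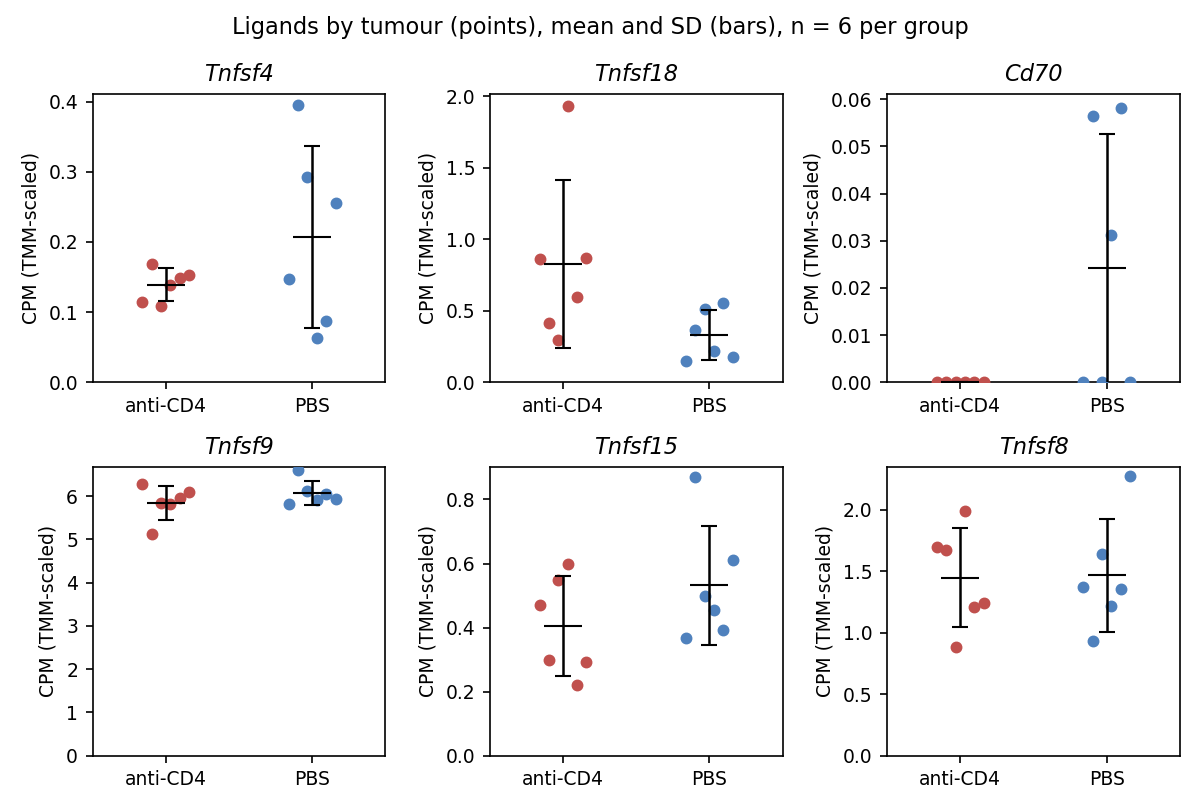
CPM (y axis, from 0) of the 5 ligands and of Tnfsf15 in each anti-CD4 and PBS tumour (points), with the mean and SD of each group (bars, n = 6). Tnfsf18 is higher in most anti-CD4 tumours, Tnfsf9 overlaps between groups at 5.13 to 6.60 CPM, and Cd70 is at 0 in all anti-CD4 tumours.

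To set levels of different genes side by side, CPM were divided by exon length in kilobases. On this scale Tnfsf9 was the highest of the 10 genes in anti-CD4 tumours, at 4.54 ± 0.306 CPM per kb, followed by Tnfrsf9 (2.88 ± 1.23), Tnfrsf18 (2.39 ± 0.482) and Cd27 (1.11 ± 0.391) (SD, n = 6). Tnfrsf4 (0.497), Tnfsf18 (0.400), Tnfsf8 (0.381) and Tnfrsf25 (0.321) came next in these tumours, and the single-tumour ranges of these 4 overlapped, as did those of Tnfrsf9 and Tnfrsf18. Through anti-CD4 4, Tnfrsf9 also reached into the range of Tnfsf9. Tnfsf4 (0.0754) and Cd70 (0) were the lowest in anti-CD4 tumours. In PBS tumours Tnfsf9 (4.70 ± 0.218), Tnfrsf18 (4.15 ± 0.764) and Tnfrsf9 (3.92 ± 0.733) had overlapping ranges, and Cd27 (2.14 ± 0.729) and Tnfrsf4 (1.86 ± 0.675) followed (SD, n = 6). Tnfrsf25 (0.577), Tnfsf8 (0.385), Tnfsf18 (0.159), Tnfsf4 (0.112) and Cd70 (0.0289) were the lowest in PBS tumours. With the length of the longest transcript in place of all exons, Tnfrsf18 (5.31) and Tnfrsf9 (5.04) stood above Tnfsf9 (4.70) in PBS tumours, so the order of the top 3 there rests on the length used, while Tnfsf9 stayed first in anti-CD4 tumours (4.54, with Tnfrsf9 at 3.70).

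Receptor and ligand were compared within each tumour as the difference of their log2 CPM. Of the 4 pairs among the 10 genes, 2 had both members tested. For GITR and its ligand, the log2 ratio of Tnfrsf18 to Tnfsf18 was 2.29 ± 0.89 in anti-CD4 tumours and 4.19 ± 0.80 in PBS tumours (SD, n = 6 each), a difference of -1.90 (exact two-sided permutation p = 0.00649, adjusted over the 2 pairs p = 0.0130). It was below every PBS tumour in 5 of 6 anti-CD4 tumours, and anti-CD4 3, at 3.65, was the exception. The difference was -2.17 to -1.63 without each tumour in turn, with adjusted p of 0.00433 to 0.0260 (exact permutation). For 4-1BB and its ligand, the log2 ratio of Tnfrsf9 to Tnfsf9 was 0.33 ± 0.54 in anti-CD4 tumours and 0.79 ± 0.32 in PBS tumours, a difference of -0.45 that did not pass (exact permutation p = 0.110, also 0.110 after adjustment). Without anti-CD4 4 that difference was -0.64 (exact permutation, adjusted p = 0.0130). The OX40 pair is given without a test because Tnfsf4 was so low. With the prior count of 2, its log2 ratio was 1.28 to 2.54 in anti-CD4 tumours and 2.65 to 4.01 in PBS tumours. Counts of Tnfrsf4 and Tnfsf4 were 32 and 4 in anti-CD4 3, and 97 and 14 in PBS 2. Without a prior count the ratio was therefore higher in anti-CD4 3 than in PBS 2, and the groups overlapped. The ratio of Cd27 to Cd70 is set by the prior count wherever Cd70 is at 0 and is not interpreted. The remaining members, Tnfrsf25 and Tnfsf8, have their partners Tnfsf15 and Tnfrsf8 outside the 10 genes.

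**Figure D4:**
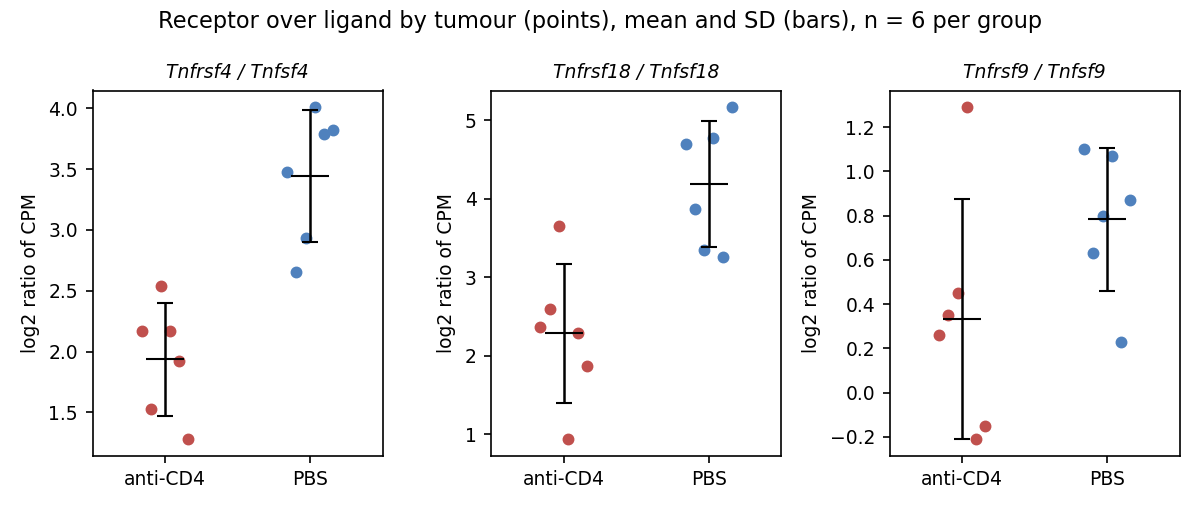
Log2 ratio of receptor to ligand CPM (y axis) in each anti-CD4 and PBS tumour (points) with the mean and SD of each group (bars, n = 6), for OX40, GITR and 4-1BB with their ligands. The OX40 pair is narrowly apart between groups with the prior count of 2 and overlaps without one. The GITR pair is lower in all but 1 anti-CD4 tumour, and the 4-1BB pair overlaps.

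The summed T cell markers were below every PBS tumour in 5 of the 6 anti-CD4 tumours, anti-CD4 4 being the exception, and in bulk RNA fewer T cells and less receptor RNA per T cell cannot be told apart. Over all 17940 genes, 2.33% were lower in edgeR, and 5027 were at an unadjusted p under 0.05 in either direction. DESeq2 called 1157 of all genes lower and voom 3169. Of 11 T cell markers, 3 fell (Cd5, Cd2 and Zap70), none was at 0, and their sum was 9.26 to 45.8 CPM in anti-CD4 tumours and 37.2 to 79.7 CPM in PBS tumours. At an unadjusted p under 0.05, 10 were lower, DESeq2 called 6 lower and voom 11, and in edgeR Cd5 alone kept its call without anti-CD4 2, 5 or 6 or PBS 2, 3, 5 or 6. Cd3e, a chain of the T cell receptor complex, was at 3.37 ± 2.70 CPM in anti-CD4 tumours and 8.18 ± 3.31 CPM in PBS tumours and did not pass (SD, n = 6 each, log2 fold change -1.28, edgeR adjusted p = 0.128). Of 8 regulatory T cell markers, 7 fell, among them Foxp3 (-1.08), the lineage factor. Gpr83 kept its call in 2 of 12 fits with a tumour left out, and the other called markers in all 12. The sum of all 8 was 20.6 to 40.3 CPM in anti-CD4 tumours and 48.1 to 68.0 CPM in PBS tumours. It includes Lrrc32, at a mean of 14.2 CPM in anti-CD4 tumours and 13.1 CPM in PBS tumours, which did not pass (log2 fold change 0.12, edgeR adjusted p = 0.677). Cd8a, which marks cytotoxic T cells, did not pass (-0.15, edgeR adjusted p = 0.794), and of 4 tested CD8 T cell markers 0 passed in edgeR, with 1 lower at an unadjusted p under 0.05, 1 in DESeq2 and 2 in voom. Of 6 tested NK cell markers 1 fell, Klre1, with sums of 4.61 to 23.1 CPM in anti-CD4 tumours and 15.1 to 41.9 CPM in PBS tumours. At an unadjusted p under 0.05, 5 NK markers were lower, DESeq2 called 4 and voom 6, and Klre1 lost its call without anti-CD4 2, 5 or 6. Of 6 tested B cell markers 2 fell, Cd22 (-0.81) and Blk (-1.63), with sums of 6.24 to 8.78 CPM in anti-CD4 tumours and 8.54 to 13.0 CPM in PBS tumours. Both lost their calls without anti-CD4 2, 5 or 6 or PBS 2 or 6, and Blk also without anti-CD4 4, PBS 4 or PBS 5. Of 9 dendritic cell markers 5 fell, and 3 kept their calls without anti-CD4 5 or 6. Their sums were 116 to 127 CPM in anti-CD4 tumours and 146 to 176 CPM in PBS tumours. Most of each sum came from Fscn1, at a mean of 92.5 CPM in anti-CD4 tumours and 101 CPM in PBS tumours. Fscn1 did not pass (log2 fold change -0.13, edgeR adjusted p = 0.188). Of 9 macrophage and monocyte markers 0 passed in edgeR, with sums of 1008 to 1206 CPM in anti-CD4 tumours and 1053 to 1993 CPM in PBS tumours. At an unadjusted p under 0.05, 3 of them were lower, and DESeq2 called 2 lower and voom 2. The part of these cells in the receptor and ligand values was not tested.

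Relative to the summed T cell markers, the log2 level of Tnfrsf4 averaged -4.84 in anti-CD4 tumours and -4.35 in PBS tumours, a difference of -0.49. The ranges overlapped, at -5.76 to -4.24 in anti-CD4 tumours and -4.61 to -4.20 in PBS tumours. The other receptors differed in the opposite direction on this relative scale, by 0.35 for Cd27, 0.41 for Tnfrsf25, 0.52 for Tnfrsf18 and 0.80 for Tnfrsf9, and the ligands by 1.25 for Tnfsf9, 1.30 for Tnfsf8 and 2.42 for Tnfsf18. The ranges of the groups overlapped for each of these genes too. The marker sum itself averaged 23.3 CPM in anti-CD4 tumours and 52.2 CPM in PBS tumours, so a gene with an unchanged level is higher on this scale. These relative values were described and not tested.

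Inside the groups, Tnfrsf4 followed the T cell markers most closely of the 8 tested genes. With each group's mean removed, Pearson's r between log2 CPM and the log2 marker sum over 12 tumours was 0.79 for Tnfrsf4 (permutation within groups p = 0.00021, adjusted over the 8 relations p = 0.00168), with Spearman's rho of 0.84 (permutation p = 0.00149, adjusted p = 0.0119). Leaving out anti-CD4 4 and anti-CD4 6, the tumours farthest from the median marker level, r was 0.84. For Tnfrsf9, r was 0.75 (permutation, adjusted p = 0.0663) and rho was 0.61 (adjusted p = 0.205), and r was 0.45 without the same tumours, so that relation leans on them. For Cd27, r was 0.67 (permutation, adjusted p = 0.0778), rho was 0.57 (adjusted p = 0.217), and r without the same tumours was 0.63. Tnfrsf18 (r = 0.43, rho = 0.40) and Tnfrsf25 (r = 0.34, rho = 0.41) did not pass (permutation, adjusted p of r 0.420 and 0.491). The ligands were at r of -0.06 for Tnfsf9, 0.05 for Tnfsf18 and 0.31 for Tnfsf8, with rho of -0.06, -0.15 and 0.28, and did not pass (permutation, adjusted p of r 0.897, 0.897 and 0.491).

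**Figure D5:**
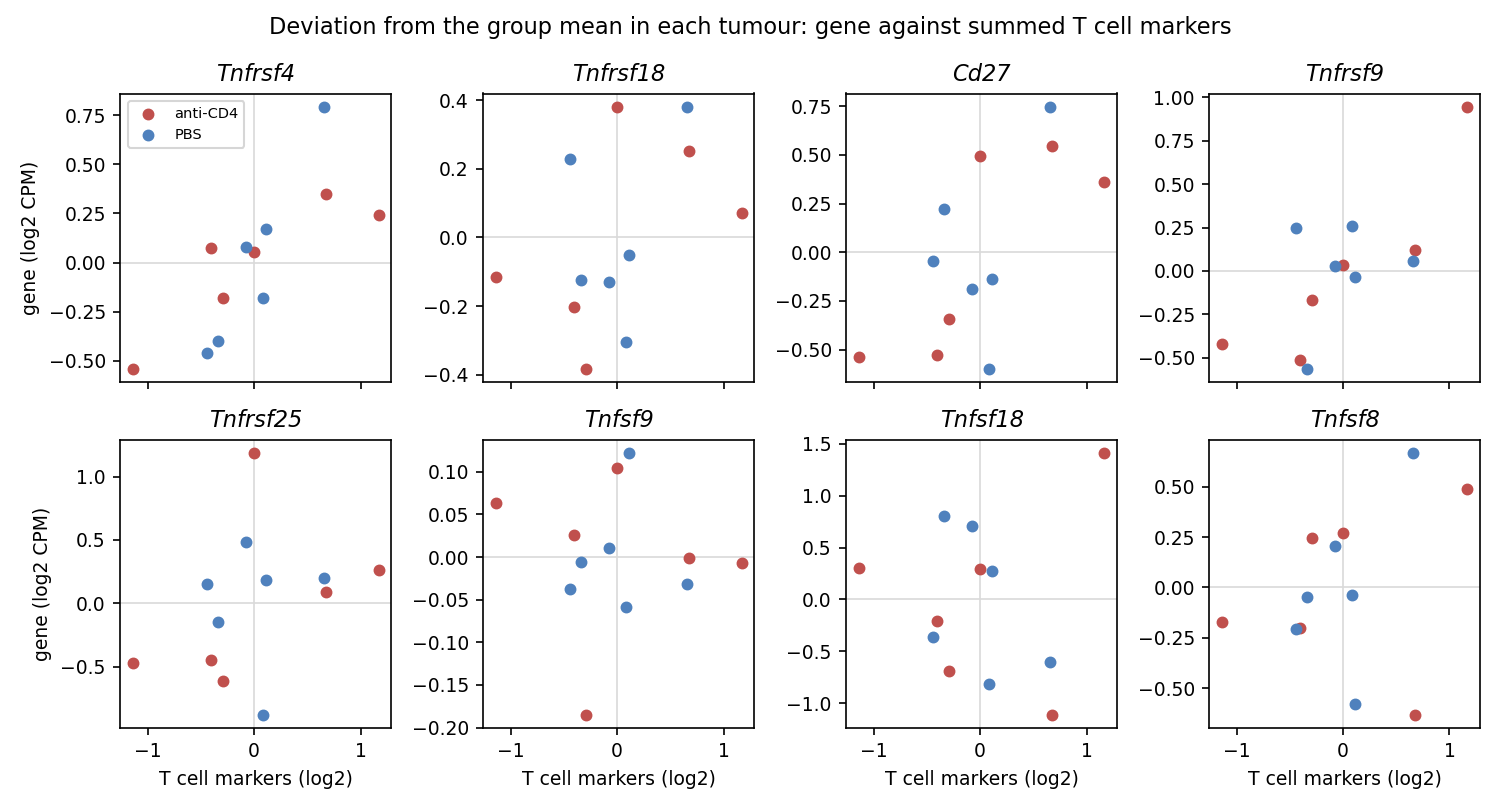
Deviation of each gene (y axis, log2 CPM) and of the summed T cell markers (x axis, log2) from their group means in 12 tumours, with anti-CD4 and PBS tumours in separate colours. Points for Tnfrsf4 run along a rising line (r = 0.79), and those for Tnfsf9 and Tnfsf18 show none.

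Several of these genes are neighbours in the genome. Tnfrsf4 and Tnfrsf18 lie 9551 bases apart on chromosome 4, on which Tnfrsf9, Tnfrsf25, Tnfsf8, Tnfrsf8 and Tnfsf15 also lie. Tnfsf4 and Tnfsf18 are 76244 bases apart on chromosome 1, and Tnfsf9 and Cd70 are 38239 bases apart on chromosome 17. None of the 5 other tested genes within 100000 bases of Tnfrsf4 and Tnfrsf18 passed, with log2 fold changes of -0.20 to 0.06 in edgeR. They include Sdf4, which ends just before Tnfrsf4 begins and was at 0.06 (edgeR adjusted p = 0.439). Near Cd27, 1 of 9 tested neighbours fell, and it was Iffo1 (-0.28). Near Tnfsf8 and Tnfsf15 the 1 tested neighbour, Tnc, which encodes the matrix protein tenascin C, rose (0.59). Near Tnfrsf25, 1 of 7 fell, Espn (-0.65), which encodes an actin-bundling protein. Of the tested neighbours, 0 of 4 passed near Tnfrsf9, 0 of 9 near Tnfsf9 and Cd70, and 0 of 2 near Tnfrsf8. Of 37 tested neighbours in all, 2 fell and 1 rose, beside 2.33% lower and 2.95% higher over all genes tested.

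RefSeq promoter windows on GRCm38.p6 (250 bases before to 50 after the start) were found for 7 of the 10 genes, and Tnfsf4, Tnfsf9 and Cd70 had none. They are shown for the neighbouring pair of receptors that fell together, for the ligand with a positive log2 fold change, and for the second start of Tnfrsf9, which held every motif searched. Each runs 5' to 3' on the gene's strand, and capitals mark motif matches.
Tnfrsf4, chr4:156013445-156013744, plus strand: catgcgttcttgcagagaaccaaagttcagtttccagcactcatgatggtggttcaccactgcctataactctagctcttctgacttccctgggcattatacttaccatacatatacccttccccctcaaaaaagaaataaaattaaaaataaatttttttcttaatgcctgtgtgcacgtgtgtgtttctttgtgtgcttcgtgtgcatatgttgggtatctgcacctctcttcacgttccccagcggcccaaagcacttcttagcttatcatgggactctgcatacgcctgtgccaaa
Tnfrsf18, chr4:156026072-156026371, plus strand: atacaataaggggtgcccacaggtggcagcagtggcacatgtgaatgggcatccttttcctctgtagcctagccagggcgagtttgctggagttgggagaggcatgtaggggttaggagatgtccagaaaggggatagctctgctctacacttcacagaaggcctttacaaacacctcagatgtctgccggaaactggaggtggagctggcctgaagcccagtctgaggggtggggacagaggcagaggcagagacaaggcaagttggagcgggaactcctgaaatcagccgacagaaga
Tnfsf18, chr1:161494407-161494706, plus strand: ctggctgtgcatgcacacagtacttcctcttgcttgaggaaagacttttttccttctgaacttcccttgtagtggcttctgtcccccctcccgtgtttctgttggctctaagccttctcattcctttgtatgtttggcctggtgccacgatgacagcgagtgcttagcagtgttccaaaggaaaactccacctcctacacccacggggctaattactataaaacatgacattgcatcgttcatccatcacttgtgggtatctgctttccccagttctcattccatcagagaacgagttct
Tnfrsf9 second start, chr4:150927749-150928048, plus strand: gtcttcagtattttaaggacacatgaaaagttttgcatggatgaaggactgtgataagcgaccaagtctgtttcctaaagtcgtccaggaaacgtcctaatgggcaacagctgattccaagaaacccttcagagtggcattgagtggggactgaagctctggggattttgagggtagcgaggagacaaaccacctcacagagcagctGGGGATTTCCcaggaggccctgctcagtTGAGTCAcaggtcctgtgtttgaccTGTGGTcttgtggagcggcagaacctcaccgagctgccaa
The motifs searched on both strands were the NF-kB (kB) motif, TGANTCA for AP-1 and TGTGGT for RUNX factors. The Tnfrsf9 window held 1 match to each, starting at -43, -15 and 10 from the start with no overlap between them. The first Tnfrsf25 window held 1 NF-kB match and 1 RUNX match. The windows of Tnfrsf4, Tnfrsf18, Cd27, Tnfsf18 and Tnfsf8, the first window of Tnfrsf9 and the second of Tnfrsf25 held none of these letters. Among all 32851 windows of the same length, 1.63% held the NF-kB letters, 7.81% the AP-1 letters and 16.8% the RUNX letters. A match describes the letters only.

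The other genes of the pathway were read from lists, beside the 2.33% of all genes that were lower, 2.95% that were higher and 5.28% called in either direction. In edgeR, 5027 of the 17940 genes were at an unadjusted p under 0.05, in either direction. DESeq2 called 1157 of all genes lower and 1337 higher, and voom called 3169 lower and 2809 higher. Of 6 tested close relatives and partners, 2 fell, Tnfrsf8 and Cd40, the receptor through which CD4 T cells license dendritic cells (-0.74, SE 0.17, edgeR adjusted p = 0.0321). DESeq2 called 2 of these lower and voom 4. Cd40lg, the ligand that CD4 T cells use for this, was too low to be tested, at 0.0686 CPM in anti-CD4 tumours and 0.194 CPM in PBS tumours. Of 19 tested further TNF receptor genes, 1 changed, and it rose, namely Eda2r, the receptor of an ectodysplasin form (0.38, SE 0.07, edgeR adjusted p = 0.0201), a share near that over all genes, and the list median was -0.05. DESeq2 called 2 of them higher, and voom called 4 lower and 4 higher. Of 10 further TNF ligands, 0 passed in edgeR, 2 were lower at an unadjusted p under 0.05, DESeq2 called 2 lower and voom 3, and the list median was -0.29. Of 21 TRAF and NF-kB genes, 4 fell by small amounts, with a list median of -0.15, while 11 were lower at an unadjusted p under 0.05, 5 in DESeq2 and 10 in voom. The 4 were Traf1 (-0.34) and Traf5 (-0.33), adaptors of several of these receptors, Map3k14 (-0.25), the NIK kinase of the noncanonical pathway, and Ikbkb (-0.26), a kinase of the canonical pathway. Of 8 survival and target genes, 1 fell, Il2ra, the interleukin 2 receptor alpha chain (-1.89), and of 6 tested CD28 family genes 1 fell, Icos (-2.25), with list medians of -0.06 and -0.63. DESeq2 called 1 survival or target gene and 3 CD28 family genes lower, and voom called 3 and 5. Over all 17940 genes the median was -0.00. Only Il2ra of these genes kept its call without each tumour in turn. Without anti-CD4 2, anti-CD4 5 or anti-CD4 6 none of Cd40, Eda2r, Traf1, Traf5, Map3k14, Ikbkb and Icos was called. Without PBS 6 or PBS 3, Cd40, Traf1, Traf5, Ikbkb and Icos lost their calls too. Cd40, Traf5, Ikbkb and Icos were also lost without PBS 2, Cd40, Traf1, Traf5 and Ikbkb without PBS 5, Traf5 and Ikbkb without PBS 4, and Traf5 without anti-CD4 3 or anti-CD4 4.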

How the data were processed

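Total RNA went through a depletion step, which names globin RNA, and was sequenced as 100-base read pairs, per the labels' protocols. Per the submitters' processing notes, the tools were kallisto and bcl2fastq 2.20.0.422, with build GRCm38.p6. The deposited values are estimated counts, 1 row per gene symbol. No source used here gives the annotation, gene summing or strand setting. Coordinates and exon lengths came from GENCODE M21 (GRCm38), which held 35973 of the 35999 symbols.

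Counts were rounded, filtered with filterByExpr, scaled by TMM and tested with edgeR 4.0.16 (R 4.3.3, quasi-likelihood, robust, no covariate), Benjamini-Hochberg over 17940 genes. SE is the log2 fold change over the square root of F. Log2 CPM used a prior count of 2. Tests over tumours were exact permutations of 924 assignments, for which 0.00216 is the smallest two-sided p. Correlations used 100000 permutations within groups. The fit was tested on simulated data.

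The genes, lists and tests were chosen with earlier results of these data known. Named were the 10 genes, Cd4, Cd3e, Cd8a, Foxp3, Tnfrsf8, Tnfsf15, up to 4 called genes per pathway list and the 3 genes most like each tested member. Msln, Pdpn, Cd5, Cd2, Zap70, Klre1, Cd22, Blk, Fscn1, Lrrc32, Gpr83, Cd40lg, Sdf4, Iffo1, Tnc and Espn were named after their values were seen. The labels do not tie tumours to single mice, so p-values measure the spread between tumours. Same-group pairs of tumours differed by chi-square per degree of freedom of 8.49 to 65.7, far above sampling noise. Alternatives included DESeq2 1.42.0, limma 3.58.1 and each tumour left out.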

Additional observations from a re-analysis of the deposited data

Results flagged for a closer look

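In 19 groups of 6 values (the 10 genes in each treatment, leaving out Cd70 in anti-CD4 tumours, where all are 0), 4 held a tumour far from its neighbours by Dixon's test, and chance flags about 1 group in 20. Tnfrsf9 was at 14.3 CPM in anti-CD4 4, against 5.15 to 8.01 CPM in the other anti-CD4 tumours. Tnfsf18 was at 1.93 CPM in the same tumour, against 0.296 to 0.867 CPM. Tnfrsf25 was at 1.56 CPM in anti-CD4 1, against 0.411 to 0.796 CPM in the other anti-CD4 tumours. Tnfsf9 was at 6.60 CPM in PBS 2, against 5.82 to 6.11 CPM in the other PBS tumours.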

How the results depend on the processing

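The count of 3 receptors lower was 5 with voom and sample weights, 0 with the library total as a covariate and 1 to 4 when a tumour was left out. Higher ligands numbered 1 in DESeq2 in place of 0. The ligand median and Tnfsf8, both -0.02, turned positive without anti-CD4 3 (0.09), anti-CD4 5 (0.03), anti-CD4 6 (0.02), PBS 3 (0.02) or PBS 6 (0.15). Over all tumours left out the median was -0.062 to 0.15 and Tnfsf8 -0.13 to 0.15, and the cause was not tested. The Cd27 to Cd70 difference was -0.47, and 0.17 with a prior count of 0.5, since Cd70 was at or near 0. The Tnfrsf9 to Tnfsf9 difference was -0.64 to -0.34 when a tumour was left out.

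Over all genes, 418 were lower and 529 higher. There were 325 and 179 with upper quartile scaling, 1157 and 1337 with DESeq2, 3169 and 2809 with voom, 251 and 272 with no filter, 5 and 0 with the library total and 705 and 378 without both anti-CD4 3 and 4. Leaving out a tumour gave 31 to 1480 lower and 29 to 1160 higher. Leaving out both tumours and thinning were chosen after seeing the data.

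Replicate numbers did not pair the tumours: same-numbered tumours had deviation correlations of -0.409 to 0.229, over 0.1 for 2 of 6 numbers, and 0 tumours correlated best with their own number. With the replicate block, 0 receptors, 14 genes lower and 19 higher were called, Tnfrsf4 was at -1.86 (edgeR adjusted p = 0.0514), and the Tnfrsf18 to Tnfsf18 difference was -1.90 (exact sign-flip permutation, adjusted p = 0.0625). Cd70 and Tnfsf4 were left out by the filter on low counts, and Tnfsf18 was left out too where 1 CPM was required in 6 tumours.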

Other observations

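The genes whose level moved most like each member inside the groups were named by Pearson's r of group-centred log2 CPM over 12 tumours, among tested genes whose average log2 CPM was at least 0. With so many genes and 12 tumours sharing depth and cell content, these are descriptions and carry no p. For Tnfrsf4 they were Milr1 (0.92), which encodes an inhibitory receptor of mast cells, Gpr174 (0.91), a G protein-coupled receptor of lymphocytes, and Sytl3 (0.90). Tnfrsf18 was most like Lrrc18 (0.97), Atg16l2 (0.94) and Phf11c (0.93), and Cd27 most like Trim12c (0.98), Slc38a9 (0.96) and Arid5a (0.94). Tnfrsf9 was most like Xylt1 (0.93), Emb (0.92) and Erbb3 (0.89), and Tnfrsf25 most like Adora3 (0.95), Vmn1r191 (0.94) and Gm8428 (0.94). Among the ligands, Tnfsf18 was most like She (0.85), Shank3 (0.85) and Pcdhga5 (0.85), Tnfsf9 most like Tmem254c (0.84), Tgfbrap1 (0.82) and Cep152 (0.82), and Tnfsf8 most like Gimap6 (0.84), Stap1 (0.83) and Kif5a (0.82). Of these 24 genes, 4 fell in anti-CD4 tumours by the edgeR test, beside 2.33% of all genes tested. They were Sytl3 (-1.06, adjusted p = 0.0271), Arid5a (-0.41, adjusted p = 0.0429), Cep152 (-0.37, adjusted p = 0.0201) and Gimap6 (-0.51, adjusted p = 0.0397).

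Between members on the same measure, Tnfrsf18 and Cd27 had the highest r (0.84), followed by Tnfrsf18 with Tnfrsf25 (0.75), Cd27 with Tnfrsf25 (0.68) and Tnfrsf4 with Cd27 (0.63). The neighbours Tnfrsf4 and Tnfrsf18 were at 0.49. Tnfrsf18 and its ligand gene Tnfsf18 were at -0.03, and Tnfrsf9 and its ligand gene Tnfsf9 at -0.11.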
